A study of Homo sapiens with 6 samples.

Results

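Trimethylation of histone H3 at lysine 27 (H3K27me3) was compared between parental HL-60 cells and HL-60 cells in which JMJD3 was knocked out. HL-60 is a human promyelocytic leukaemia line, here labelled as myeloblasts, and both genotypes were grown in the same medium, and the labels name no treatment. The comparison rests on 2 of the 6 chromatin immunoprecipitation libraries of the study, 1 H3K27me3 library for each genotype; the other libraries were H3K4me3 and input of the same genotypes. The H3K4me3 lists were used only to describe genes, and the inputs were not analysed here. The labels do not say how the knockout was made or whether the cells were 1 clone. The members were all distinct peaks, by chromosome, start and end, of both deposited H3K27me3 lists, 3578 in parental cells and 3234 in the knockout. They were listed beside 3290 of the 18086 gene symbols that occur in any of the 4 deposited lists. The titles of both libraries name H3K27me3 whereas their antibody label names H3K4me3, and the title was followed. With 1 library per genotype there is no replicate check, no test across samples is possible, and a difference between genotypes cannot be told apart from a difference between libraries.

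H3K27me3 is deposited by Polycomb repressive complex 2 on genes that are kept silent, most of them genes of other lineages. JMJD3, the product of KDM6B, removes methyl groups from this residue, and KDM6A encodes a related demethylase. In many cell types broad H3K27me3 covers developmental transcription factor genes with CpG-rich promoters, and promoters that carry H3K4me3 as well are called bivalent.

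The printed sequences show the 2 kinds of promoter found under the mark. A transcription start site (TSS) was called spanned when a peak ran across it. For each state (spanned in both lists, in parental only, or in the knockout only) the coding gene with the widest peaks was taken from the CpG-poor promoters (at most 5 CG in 300 bases) and from the CpG-rich ones (observed over expected CpG of at least 0.6 and GC of at least 50%). Only genes of at most 20 kb with all listed starts within 300 bp were eligible. Each line gives the 250 bases before the RefSeq start in GRCh38.p14, 5′ to 3′ on the gene's strand, with CG in capitals.
SPRR2A: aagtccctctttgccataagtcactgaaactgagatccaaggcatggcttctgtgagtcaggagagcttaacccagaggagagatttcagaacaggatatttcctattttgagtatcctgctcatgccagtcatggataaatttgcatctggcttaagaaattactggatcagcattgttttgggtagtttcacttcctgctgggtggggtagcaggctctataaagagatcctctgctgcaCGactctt
CHRNB2: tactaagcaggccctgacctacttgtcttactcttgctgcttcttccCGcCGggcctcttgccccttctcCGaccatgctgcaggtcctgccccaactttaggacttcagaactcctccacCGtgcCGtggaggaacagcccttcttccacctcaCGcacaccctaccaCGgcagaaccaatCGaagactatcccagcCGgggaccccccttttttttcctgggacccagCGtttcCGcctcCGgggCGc
KRT20: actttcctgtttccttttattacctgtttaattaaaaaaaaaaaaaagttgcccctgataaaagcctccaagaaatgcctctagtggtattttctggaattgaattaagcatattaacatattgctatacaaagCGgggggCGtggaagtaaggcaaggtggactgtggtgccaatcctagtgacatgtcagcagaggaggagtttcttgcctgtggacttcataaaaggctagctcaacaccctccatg
DSEL: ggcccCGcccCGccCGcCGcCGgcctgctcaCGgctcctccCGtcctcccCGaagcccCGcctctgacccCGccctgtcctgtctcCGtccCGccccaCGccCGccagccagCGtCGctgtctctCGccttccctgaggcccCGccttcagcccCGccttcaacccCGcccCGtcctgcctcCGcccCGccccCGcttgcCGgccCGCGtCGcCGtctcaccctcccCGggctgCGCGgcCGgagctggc
OR4L1: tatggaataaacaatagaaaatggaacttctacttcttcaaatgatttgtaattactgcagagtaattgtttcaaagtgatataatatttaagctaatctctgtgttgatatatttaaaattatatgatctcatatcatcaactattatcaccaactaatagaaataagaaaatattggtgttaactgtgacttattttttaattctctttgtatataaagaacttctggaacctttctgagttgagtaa
DUSP1: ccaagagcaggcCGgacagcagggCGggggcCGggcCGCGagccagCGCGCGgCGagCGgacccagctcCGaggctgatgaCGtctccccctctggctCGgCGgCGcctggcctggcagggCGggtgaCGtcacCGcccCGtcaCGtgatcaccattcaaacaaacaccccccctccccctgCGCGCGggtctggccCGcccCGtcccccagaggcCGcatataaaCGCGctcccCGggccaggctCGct

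SPRR2A and CHRNB2 were spanned in both lists, KRT20 and DSEL in parental cells only, and OR4L1 and DUSP1 in the knockout only. SPRR2A, a cornified envelope protein gene on chromosome 1 (153057513 to 153057762, minus strand), had 1 CG in the printed bases. CHRNB2, a nicotinic acetylcholine receptor subunit gene on the same chromosome (154567528 to 154567777, plus strand), had 13. KRT20, an intestinal keratin gene (chromosome 17, 40885243 to 40885492, minus strand), had 2. DSEL, an epimerase gene of dermatan sulphate synthesis (chromosome 18, 67516721 to 67516970, minus strand), had 33. The olfactory receptor gene OR4L1 (chromosome 14, 20059795 to 20060044, plus strand) had 0, and DUSP1, a phosphatase gene of the MAP kinase pathway (chromosome 5, 172771196 to 172771445, minus strand), had 30. The coordinates above are those of GRCh38.p14; all others below are hg19.

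Low CpG content was common among marked genes. The motif CG, which reads the same on both strands, occurred in 98.7% of 11649 RefSeq promoters of coding genes outside chromosome 8, so its number was compared. The median was 7 CG per 300 bases at genes marked in both lists, 14 at parental-only genes and 10 at knockout-only genes, against 24 over all these genes. CpG-rich promoters made up 37.7% (Wilson 95% interval 31.9 to 43.8, n = 252) of the genes marked in both lists, 46.3% (40.4 to 52.4, n = 259) of parental-only genes and 44.6% (38.7 to 50.6, n = 267) of knockout-only genes. Over all genes in any list the share was 72.3%, and the intervals of the 3 states overlapped one another. This background holds only genes with some listed peak, most of them with H3K4me3, a mark of CpG-rich promoters. Over all 15843 RefSeq coding genes with a sequence, listed or not, a background added after the data were seen, the share was 63.4% and the median 22 CG, and over the 4210 of them in no list 38.6% and 10 CG. Marked promoters thus had a smaller CpG-rich share than all coding genes, but one close to that of coding genes without a listed peak of either mark. Among listed coding genes of at most 20 kb, a limit added after the data were seen, the shares were 16.0%, 36.0% and 22.8%. Over all 4790 listed genes of that length it was 64.7%. This background again holds only genes with some listed peak, and unlisted genes of that length were not compared. Intervals throughout cover counting error only, since neighbouring peaks and genes are not independent.

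**Figure D1:**
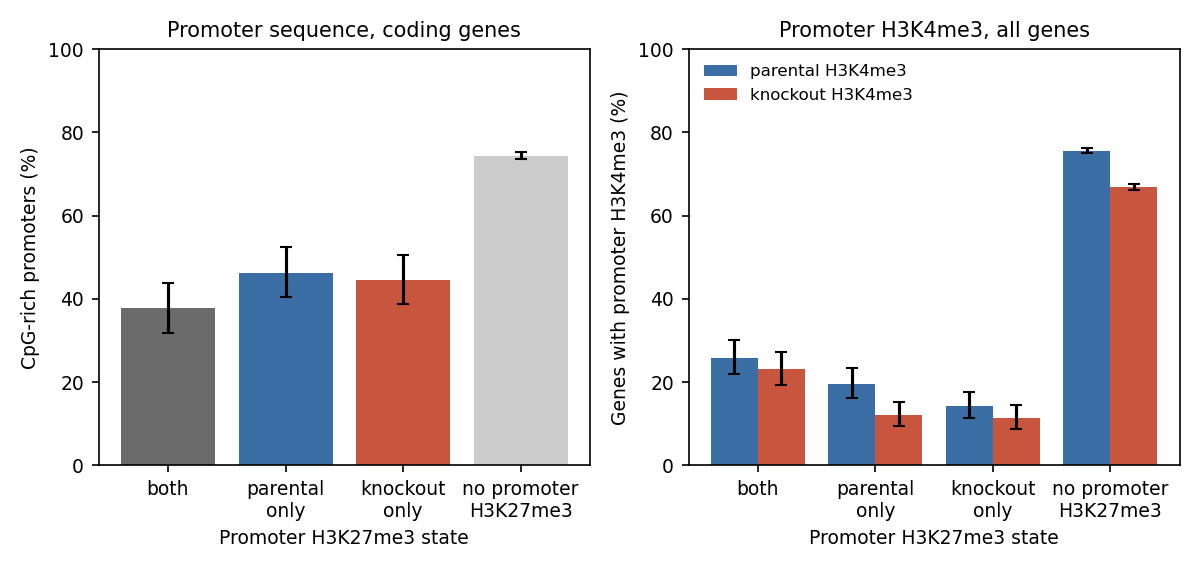
Left, percent of coding genes in any list and outside chromosome 8 with a CpG-rich promoter. Right, percent of all genes in any list with an H3K4me3 peak at the promoter in each genotype's H3K4me3 list. Bars are grouped by promoter H3K27me3 state and error bars are Wilson 95% intervals; the marked states lie between 37.7% and 46.3% on the left, below the genes with no promoter peak at 74.4%.

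H3K4me3 was also less common at marked promoters. A promoter was marked when a peak spanned a TSS of the gene or had its centre at most 5 kb from one. In the parental H3K4me3 list, a promoter peak was present at 25.9% (22.0 to 30.2) of the 429 genes with promoter H3K27me3 in both lists, at 19.6% (16.3 to 23.3) of the 495 parental-only genes and at 14.3% (11.4 to 17.7) of the 470 knockout-only genes. Over all 18086 genes it was 71.3%. In the shorter knockout H3K4me3 list the values were 23.1%, 12.1% and 11.3%, against 62.9% over all genes. Genes with promoter H3K4me3 in parental cells included NEDD4L, KCTD1 and PCGF5 among those in both H3K27me3 lists, FGFR1 and DSEL among the parental-only genes, and PLAG1, CREB5 and IGF2BP2 among the knockout-only genes. The denominator holds only genes with some listed peak, which raises the share with H3K4me3 over all genes.

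Marked coding genes spread widely in length, with higher medians than all listed coding genes and smaller lower quartiles. The median length in RefSeq was 56206 bp for genes marked in both lists, 31696 bp for parental-only and 41659 bp for knockout-only genes, against 27045 bp over all listed coding genes. Lower quartiles were 8753, 8231 and 7191 bp against 9988 bp, and upper quartiles 171077, 123480 and 150527 bp against 68755 bp. Over all 20056 RefSeq coding genes, listed or not, the median was 24093 bp and the quartiles 8531 and 65017 bp. Against these the medians were still higher, but the lower quartile of genes marked in both lists was not smaller. Coding genes made up 75.5%, 66.5% and 71.7% of the 3 states, against 79.6% of all symbols. Peaks showed no preferred side of the start: 48.8% of parental and 51.1% of knockout peak and gene pairs had the peak centre downstream of the TSS.

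The lists were alike in total extent. They covered 4.22 Mb in parental cells and 4.17 Mb in the knockout, with a median peak width of 909 and 1032 bp and a widest peak of 13028 and 7792 bp. The peak names carry numbers that increase along the genome in every case and reach 17383 in parental cells and 15618 in the knockout, a ratio of 0.898. The listed peaks, all within 20 kb of a TSS, were 20.6% and 20.7% of those numbers. Read depth is unknown, since the lists hold no counts. KDM6B and KDM6A had no H3K27me3 peak in either list, and a peak list does not check the knockout itself. Of 10 myeloid marker genes, 8 had promoter H3K4me3 in parental cells, among them MPO, PRTN3, CTSG and CSF3R, and 0 had H3K27me3 within 20 kb in either list.

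Wide peaks recurred between genotypes and narrow ones mostly did not. Of the parental peaks, 27.2% overlapped a knockout peak by at least 1 bp. Among parental peaks of at most 500 bp the share was 14.8% (12.4 to 17.4, 114 of 772). It was 24.6% (21.7 to 27.9) at 1001 to 1500 bp, 53.5% (48.0 to 58.9) at 2001 to 3000 bp and 90.0% (76.9 to 96.0, 36 of 40) above 5000 bp. Knockout peaks gave 17.3% (14.3 to 20.7, 94 of 544) at the narrow end and 87.5% (71.9 to 95.0, 28 of 32) at the wide end. Each class above 1500 bp lay above the narrower ones in both lists. A wider peak also has more bases that can be hit, and its part in this order was not tested. Shared bases were 21.4% of the parental and 21.6% of the knockout coverage. Overlap varied less with distance from the TSS: 31.5% of knockout peaks within 1 kb and 25.3% of those at 15 to 20 kb overlapped.

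**Figure D2:**
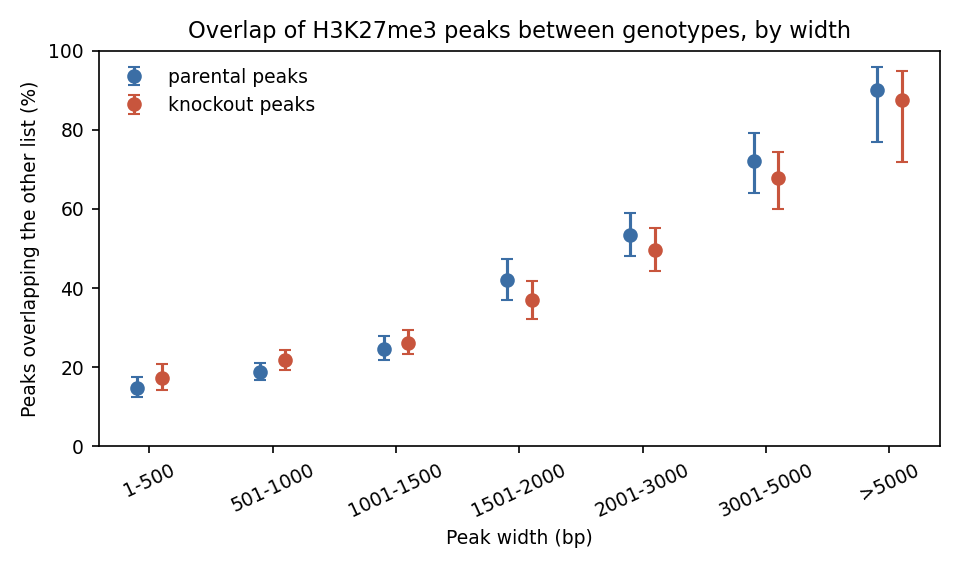
Percent of H3K27me3 peaks that overlap a peak of the other genotype's list by at least 1 bp (vertical axis), by peak width class in bp (horizontal axis), for the parental and the knockout list. Points are shares with Wilson 95% intervals; they run from 14.8% to 90.0% in parental cells and from 17.3% to 87.5% in the knockout.

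Joining peaks of both lists that lay at most 10 kb apart gave 3292 domains, of which 1099 held peaks of both genotypes, 1112 parental peaks only and 1081 knockout peaks only. The shared domains had a median span of 7120 bp and held 69.1% of the parental and 64.2% of the knockout coverage. Single peaks made up 82.1% of parental-only and 84.6% of knockout-only domains. A shared domain needs a peak of each list but no overlap between them, so it cannot be a single peak and its larger span is partly built in. Thus most listed bases lay in domains with peaks of both genotypes near one another. The bases directly shared were 21.4% of the parental and 21.6% of the knockout coverage, and most peaks had no direct counterpart.

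At promoters, 429 genes were marked in both lists (2.37% of all genes), 495 in parental cells only (2.74%) and 470 in the knockout only (2.6%). The parental list thus marked 924 genes (5.11%). Of these, 46.4% (43.2 to 49.7) were marked in the knockout as well, against 4.97% of all genes that were marked in the knockout. Within the full 20 kb listing 1399 genes (7.74%) were in both lists, 938 (5.19%) in parental only and 953 (5.27%) in the knockout only. Some genes marked at the promoter in 1 list had a peak of the other list farther out: 222 (44.8%) of the 495 parental-only genes had a knockout peak within 20 kb, against 13% of all genes, and 132 (28.1%) of the 470 knockout-only genes had a parental one, against 12.9%. Among the 429 genes marked in both lists, 306 (71.3%, 66.9 to 75.4) had promoter peaks that overlapped each other. Genes marked in both lists had a median summed promoter width of 1539 bp in parental cells and 1409 bp in the knockout. Parental-only genes had 828 bp and knockout-only genes 1080.5 bp. A peak spanned the TSS in both lists at 25 genes, among them HEY1, CTLA4, IGF1 and KCNA3.

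Among genes marked in both lists no common direction of change in promoter width was seen. The log2 ratio of summed promoter width, knockout over parental, had a median of 0.01 and quartiles of -0.93 and 0.87. The mark was wider in the knockout at 218 genes and narrower at 211, and 192 (44.8%) differed by more than 2-fold, 91 of them wider and 101 narrower. Within 20 kb the values leaned towards narrower in the knockout, with a median of -0.14. Of the 1399 genes in both lists there, 642 were wider and 757 narrower. Beyond 2-fold, 298 were wider and 375 narrower. Width says how far a called region reaches, not how much of the mark it carries.

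The widest promoter marks in both lists were mostly on chromosomes 18 and 1. KCTD1, a transcriptional repressor gene, had 11788 bp in parental cells and 15311 bp in the knockout. NEDD4L, a ubiquitin ligase gene, had 12175 and 8478 bp, and its full listing of 17 and 18 peaks summed to 25052 and 25129 bp. GAREM, an adaptor gene of growth factor signalling, had 8317 and 8475 bp. These 3 genes on chromosome 18 were spanned at the TSS in the parental list. RIMS1, a presynaptic gene on chromosome 6, had 10312 and 5321 bp. Chromosome 18 carried 11.1% of the numbered parental peaks and 8.94% of the knockout ones.

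**Figure D3:**
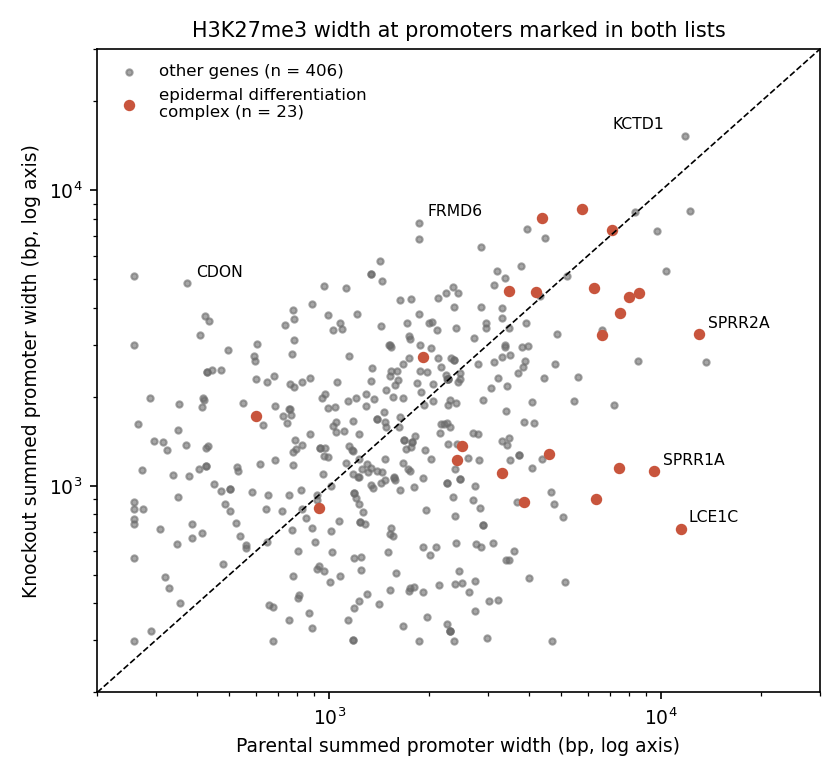
Summed promoter H3K27me3 width in parental cells (horizontal, bp, log axis) and in the knockout (vertical, bp, log axis) for the 429 genes marked in both lists, 1 point per gene, with equality dashed. The 23 genes of the epidermal differentiation complex lie mostly below the line, and the other 406 lie on both sides of it.

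The epidermal differentiation complex on chromosome 1 stood out by the size of its domains. It is a cluster of genes for cornified envelope proteins of the skin, among them the late cornified envelope (LCE), small proline-rich (SPRR) and filaggrin families. Of 45 of its genes in any list, 35 had promoter H3K27me3 in parental cells and 23 in the knockout; all 23 were also marked in parental cells, 12 were parental only, and 0 were knockout only. Over all genes 7.71% were marked in either list. The genes share peaks: 56 distinct promoter peaks with 146728 bp served the 35 parental genes, and 31 with 72093 bp the 23 knockout genes.

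Within 20 kb, 42 of the 45 genes were listed in both genotypes and 1 in parental cells only, so the cluster was covered in both and the difference was one of extent. Peaks listed for it numbered 119 in parental cells and 80 in the knockout, and summed to 300561 and 162688 bp, a ratio of 0.541. Elsewhere the ratio of listed bases was 1.02. Of the 80 knockout peaks, 85.0% overlapped a parental one, and of the 119 parental peaks 57.1% overlapped a knockout one. The direction was the same in each of the 4 widest joined domains there. The LCE1 and IVL domain (152752531 to 152897083) held 79507 bp in parental cells and 39929 bp in the knockout. The LCE2 and KPRP domain (152599017 to 152742191) held 69117 and 41155 bp. The SPRR2 domain (153008840 to 153074178) held 33077 and 16305 bp, and the filaggrin domain (152286894 to 152319401) 21578 and 17155 bp.

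Single genes of the complex followed this in part. At SPRR2A 1 parental peak of 13028 bp (153022348 to 153035375) ran across the CpG-poor promoter printed above, where the knockout had peaks of 2878 and 387 bp. At SPRR1A the widths were 9536 and 1119 bp, at LCE1C 11423 and 716 bp, and at SPRR4 6354 and 906 bp. IVL, the gene of involucrin, had 7522 and 3855 bp. FLG went the other way, with 4370 bp in parental cells and 8035 bp in the knockout, as did LCE1D with 5771 and 8671 bp. Both turned within 20 kb, where FLG had 19726 and 17155 bp and LCE1D 24533 and 14060 bp. LOR, the loricrin gene, had a single parental peak of 258 bp, the smallest width in that list. In all, 16 of the 23 genes marked in both lists were narrower in the knockout, with a median log2 ratio of -0.93, against 0.03 over the other 406 genes.

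Keratin and keratin-associated protein genes, which encode the filaments of epithelia and the matrix of hair, ran in the other direction with the 5 kb window, but not with a 1 kb window or spanning peaks alone. Of 77 in any list, 10 were marked at the promoter in parental cells and 22 in the knockout: 5 in both, 5 in parental cells only and 17 in the knockout only. Over all genes 5.11% were marked in parental cells and 4.97% in the knockout. Of the 17 knockout-only genes, 12 were keratin-associated protein genes and 5 were keratin genes. The 22 genes were served by 18 distinct peaks and the 10 genes by 10. Among keratin genes, KRT20 had 2482 bp and KRT28 1815 bp in parental cells only. KRT222 had 3526 bp, KRT33B 2599 bp and KRT38 2539 bp in the knockout only. KRTAP9-9 had 993 bp in parental cells and 3789 bp in the knockout. Within 20 kb 20 genes were in both lists, 17 in parental only and 28 in the knockout only. Over all genes these states held 7.74%, 5.19% and 5.27%. The direction turned with a 1 kb window and with only peaks that span the TSS, where the knockout minus parental number of marked genes was -3 in each case.

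Olfactory receptor genes, which are expressed in the nasal epithelium, were marked in nearly equal numbers in both genotypes. Of 170 in any list, 46 were marked in parental cells and 47 in the knockout: 21 in both, 25 in parental only and 26 in the knockout only. The knockout marked 45.7% (32.2 to 59.8) of the parental members, near the 46.4% over all genes. OR56A3 had 3320 and 3998 bp, and OR1N2 had 4792 and 2586 bp. OR10A6 had 3998 bp in parental cells and 486 bp in the knockout. OR7A17 was parental only with 1703 bp, whereas OR4L1 with 3651 bp and OR2J3 with 2119 bp were knockout only. Beta-defensin genes, which encode antimicrobial peptides of epithelia, numbered 18 in any list, with 4 in both, 2 in parental only and 2 in the knockout only. Over all genes these states held 2.37%, 2.74% and 2.6%. DEFB112 had 2435 and 4482 bp.

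**Figure D4:**
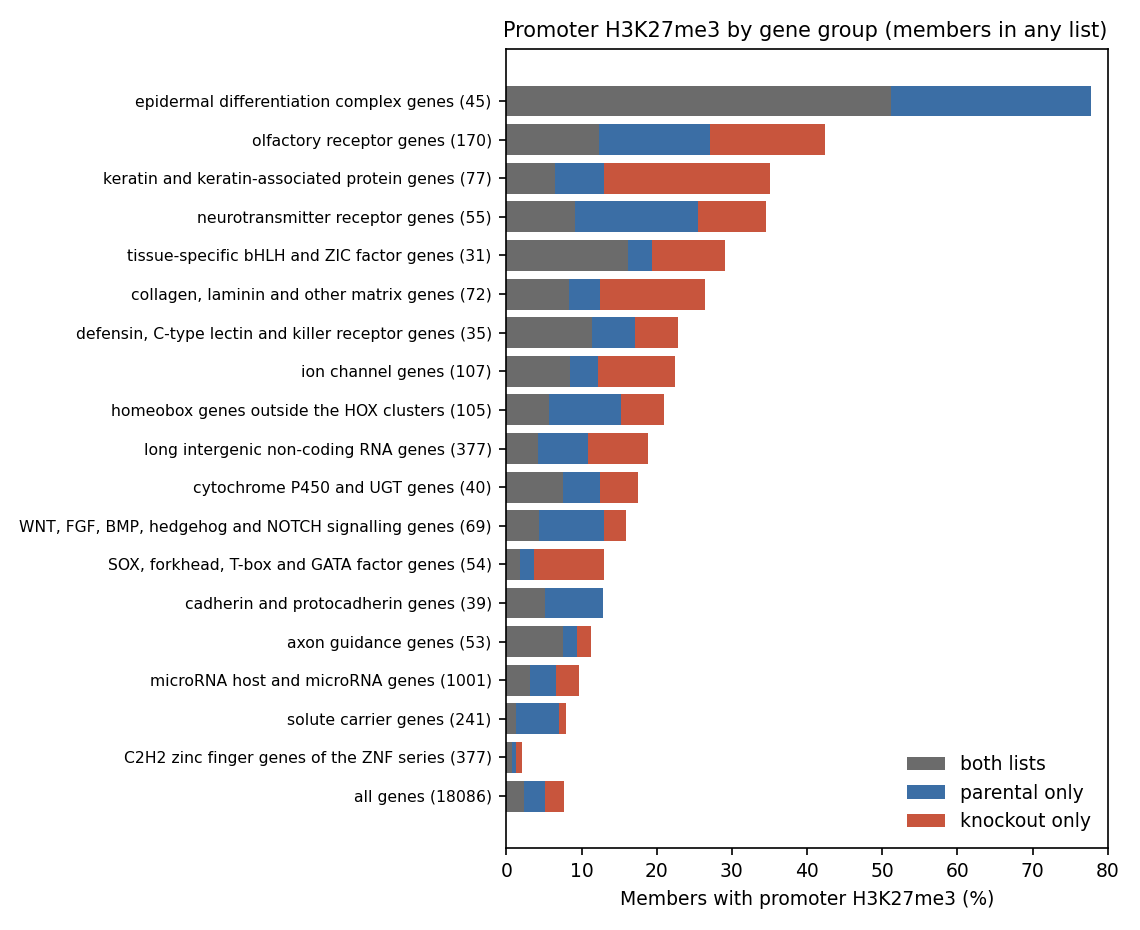
Percent of the members of each gene group with promoter H3K27me3 (horizontal axis), divided into genes marked in both lists, in parental cells only and in the knockout only; the number of members in any list is in parentheses. Groups with at least 5 marked members are shown above all genes, where 7.71% were marked; a gene is a member only if it has a peak of either mark in some list.

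These shares are over genes with some listed peak, and most olfactory receptor genes, 150 of 170, have an H3K27me3 peak within 20 kb. Over all RefSeq members, listed or not, the promoter was marked at 72.9% of epidermal differentiation complex genes, 17.9% of keratin genes, 17.6% of olfactory receptor genes and 14.7% of matrix genes, against 4.65% of all RefSeq genes.

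Developmental transcription factor genes had members in every state outside the HOX clusters, at shares that differed by group. Of 105 homeobox genes outside the HOX clusters, 6 were marked at the promoter in both lists, 10 in parental only and 6 in the knockout only. In either list 21.0% were marked against 7.71% of all genes, and over RefSeq members 12.8% against 4.65%. POU3F2, a neural factor gene, had 3312 and 3702 bp. NKX2-4 had 1441 and 4929 bp. BSX, a hypothalamic factor gene, was parental only with 2520 bp, and LHX4, a pituitary factor gene, with 1424 bp. ZFHX3 was knockout only with 3642 bp. Within 20 kb 26 were in both lists, 20 in parental only and 12 in the knockout only. There PRRX1, a limb mesenchyme factor gene, had 4736 bp in parental cells only, and BARHL2, a neural factor gene, had 5488 bp in the knockout only. Of 33 HOX cluster genes 1 was marked at the promoter, in the knockout. The promoter share was 3.03%, against 7.71% of all genes. Within 20 kb 0 had a parental peak, against 12.9% of all genes, and 5 had a knockout peak, against 13%. These 5 genes were served by 2 distinct peaks. A group of 33 genes would have few marked members at these shares too, so the counts are not read as a lack of the mark.

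Of 54 SOX, forkhead, T-box and GATA genes, 1 was marked in both lists, 1 in parental only and 5 in the knockout only. In either list 13.0% were marked against 7.71% of all genes, and over RefSeq members 8.05% against 4.65%. FOXP2, a factor gene of brain development, had 5047 bp in 3 knockout peaks and no parental peak within 20 kb. SOX6 had 4454 bp at the promoter in the knockout only, and 3141 and 11917 bp within 20 kb. SOX17, an endoderm factor gene, had 1919 and 436 bp. Of 31 tissue-specific basic helix-loop-helix and ZIC genes, 5 were marked in both lists, 1 in parental only and 3 in the knockout only. The shares here were 29.0% in either list and 15.8% of RefSeq members. HEY2, a Notch target gene, had 2409 and 3416 bp and the muscle factor gene MYF5 had 1556 and 676 bp. TCF21, a mesenchymal factor gene, had 3339 bp in parental cells only. NEUROD4, a neuronal factor gene, had 2287 bp in the knockout only.

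Signalling genes of the WNT, FGF, BMP, hedgehog and NOTCH families numbered 69 in any list, with 3 in both, 6 in parental only and 2 in the knockout only. In either list 15.9% were marked against 7.71% of all genes, and over RefSeq members 10.5% against 4.65%. FGF14 had 5451 bp in parental cells and 1935 bp in the knockout. The receptor gene FGFR1 had 2593 bp in parental cells only, and the ligand gene BMP5 2427 bp in the knockout only. Among 53 axon guidance genes 4 were in both lists, 1 in parental only and 1 in the knockout only. The shares here were 11.3% in either list and 8.45% of RefSeq members. UNC5B, a netrin receptor gene, had 1433 and 3477 bp.

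Genes of excitable cells were marked in both genotypes. Of 107 ion channel genes 9 were in both lists, 4 in parental only and 11 in the knockout only, which is 22.4% in either list against 7.71% of all genes. Of the parental ion channel genes 69.2% (42.4 to 87.3) were marked in the knockout too, and 46.4% over all genes lies within that interval. Of the 9 in both, 2 were wider in the knockout, and the median log2 ratio was -1.59. The sodium channel gene SCN10A had 5110 bp in parental cells and 474 bp in the knockout, and SCN9A had 2633 and 438 bp. The potassium channel gene KCNA3 had 2731 and 3163 bp. KCNH7 was parental only with 2020 bp and KCNJ16 was knockout only with 1700 bp. Of 55 neurotransmitter receptor genes 5 were in both, 9 in parental only and 5 in the knockout only, 34.5% in either list. The serotonin receptor gene HTR4 had 3791 and 5526 bp, CHRNB2 had 3972 and 2984 bp, and the dopamine receptor gene DRD1 had 2065 bp in parental cells only. GLRA3, a glycine receptor gene, had 2929 bp in the knockout only.

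Matrix genes were listed more often in the knockout. Of 72 collagen, laminin and other matrix genes, 9 were marked at the promoter in parental cells and 16 in the knockout: 6 in both, 3 in parental only and 10 in the knockout only. Over all genes the shares were 5.11% and 4.97%. Within 20 kb 13 were in both, 1 in parental only and 18 in the knockout only, against 12.9% of all genes listed in parental cells and 13% in the knockout. COL4A1 and COL4A2, basement membrane collagen genes that share a promoter region, shared 1 peak of 1340 bp in parental cells and 1 of 5190 bp in the knockout. FN1, the fibronectin gene, had 1551 and 1998 bp. COL5A2 was parental only with 2087 bp. Matrix metalloproteinase genes were looked at as a family after their values were seen. Of 20 listed symbols that begin with MMP and a number, some of them with a further suffix, 0 were marked at the promoter in parental cells and 6 in the knockout. The 6 marked symbols had no suffix. Over all genes the shares were 5.11% and 4.97%, and 0 of 20 lies near the former. In the knockout MMP3 had 3457 bp, MMP24 1341 bp, MMP12 1290 bp, MMP13 820 bp, MMP27 542 bp and MMP26 315 bp. Of these 6 genes MMP26 alone was also listed in parental cells within 20 kb, with 2045 bp. MMP3, MMP12, MMP13 and MMP27 lie between 100 and 110 Mb of chromosome 11, so these marks come largely from 1 region.

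Solute carrier genes, which encode membrane transporters, were marked about as often as all genes, 7.88% against 7.71% in either list, but with more members in parental cells at promoters and not within 20 kb. Of 241 in any list, 17 were marked at the promoter in parental cells and 5 in the knockout: 3 in both, 14 in parental only and 2 in the knockout only. Over all genes 5.11% were marked in parental cells and 4.97% in the knockout. SLC26A7, an anion exchanger gene, had 3172 bp in parental cells only. SLC22A9 and SLC22A24, organic anion transporter genes, had 2298 and 1772 bp in parental cells only. SLC1A2, the glial glutamate transporter gene, had 885 bp in parental cells and 4109 bp in the knockout. Within 20 kb the numbers were nearly equal, with 20 genes in both, 13 in parental only and 14 in the knockout only. The parental list thus held 33 of them and the knockout list 34. Over all genes 12.9% and 13% were listed.

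Several groups of genes that dividing myeloid cells use had few marked members in either genotype, against 7.71% of all genes. Of 78 cytosolic ribosomal protein genes 1 was marked at the promoter (RPL38, 1449 bp, parental only), of 171 mitochondrial respiratory chain and ribosome genes 1 (NDUFA5, 1045 bp, parental only) and of 68 replication-dependent histone genes 0. Of 48 cell cycle and replication genes 1 was marked, CDK6, with 3739 bp in parental cells and 1272 bp in the knockout. Of 28 myeloid transcription factor genes 0 were marked at the promoter. Of 29 myeloid surface receptor genes only CD163 was marked, with 382 bp in parental cells. Of 21 inflammatory and NF-kB response genes 0 were marked. Groups of 21 to 29 genes would have few marked members at 7.71% too, so their counts are not read as a lack of the mark. Of 19 granule and S100 protein genes 1 was marked at the promoter (5.26%), in both lists. Within 20 kb 5 of them were listed in either genotype, which is 26.3% against 18.2% of all genes. Interferon-stimulated genes lay near the share over all genes, with 2 of 29 (6.9%): OAS2 had 510 bp in parental cells only and IFI44L 1027 bp in the knockout only. Zinc finger genes of the ZNF series, a large family, had 8 marked of 377, among them ZNF521 with 5215 and 5134 bp.

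Among 24 genes of acute myeloid leukaemia 2 were marked at the promoter (8.33%, near the 7.71% of all genes), both in both lists. MECOM, which encodes the EVI1 factor, had 3469 bp in parental cells and 3416 bp in the knockout, but at different starts. The wide parental peak of 3113 bp (chromosome 3, 169381567 to 169384679) lay beside the start of the long transcript NM_004991. The knockout peaks of 1936 bp (168859384 to 168861319) and 1480 bp (168864990 to 168866469) flanked the start of the short transcript NM_001163999. Near that start the parental list had 1 peak of 356 bp in the window. RUNX1T1 had 1135 and 351 bp. Of 35 genes of the Polycomb and H3K27 methylation machinery, PCGF5 had 6628 and 3362 bp and CBX7 503 and 821 bp.

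Non-coding genes were present in every state, at shares that depended on the denominator. Of 1001 microRNA and microRNA host genes in any list, 32 were marked at the promoter in both lists, 34 in parental only and 31 in the knockout only, 9.69% in either list against 7.71% of all genes. Over all RefSeq members the share was 4.86%, against 4.65% of all RefSeq genes, so microRNA genes lay near the background. MIR9-1, the gene of a neural microRNA, had 3838 bp in parental cells and 2517 bp in the knockout. MIR184 was parental only with 2285 bp. MIR30A was knockout only with 5669 bp, as was MIR137 with 2889 bp. Of 377 long intergenic non-coding RNA genes, 16 were in both lists, 25 in parental only and 30 in the knockout only, which is 18.8% of the listed and 3.36% of the RefSeq members.

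The widest marks found in 1 genotype only lay on several chromosomes. In parental cells only, the widest domain held 15835 bp in 5 peaks on chromosome 11 (126817678 to 126851244) at KIRREL3-AS2 and MIR3167. It was followed by LINC00411 on chromosome 13 with 8703 bp. At the promoter, MIR1299 had 5858 bp. CAV1, the caveolin gene, had 3774 bp at the promoter in parental cells only but 1917 bp farther out in the knockout. In the knockout only, SLCO1C1, a thyroid hormone and anion transporter gene, had 13808 bp in 6 peaks (chromosome 12, 20837259 to 20869261). ARHGAP32 on chromosome 11 had 12807 bp within 20 kb, of which 6998 bp lay in 1 peak across the TSS. CREB5 had 7603 bp, FOXP2 6508 bp and IGF2BP2 4460 bp within 20 kb. The gains at genes marked in both lists were led by FRMD6, with 1867 bp in parental cells and 7777 bp in the knockout.

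Differences were clustered along some chromosomes. For each chromosome the span of peak numbers, from the first to the last listed peak, was compared as knockout over parental. The ratio was lowest on chromosomes 19 (0.434), 16 (0.488), 20 (0.616) and X (0.618). It was highest on chromosomes 13 (1.59), 22 (1.35), 12 (1.27) and 9 (1.26), against 0.898 for the whole lists. The genome was divided into bins of 10 Mb, a step added after the data were seen, and the peak numbers were used to bound how many peaks were called in each, listed or not. This takes every number without a listed peak as a called peak that is absent from the listing, an assumption that no label or header settles. Bins with fewer than 50 called peaks in both lists could not enter the following count. In 7 of 217 bins with bounds in both lists, one genotype had at least 50 called peaks and at least 2-fold the upper bound of the other. Of the 7, 6 had more in the knockout and 1 more in parental cells. The clearest was the bin from 20 to 30 Mb of chromosome 12. The parental list had 1 peak there, of 576 bp at BHLHE41, and 1 to 4 called peaks in all, whereas the knockout list had 35 peaks with 47689 bp and 130 to 139 called peaks. The H3K4me3 lists had 89 and 72 peaks in the same bin.

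The knockout peaks of that bin included a run at organic anion transporter genes and their neighbours. Besides SLCO1C1, SLCO1A2 had 8473 bp within 20 kb and SLCO1B1 3498 bp. IAPP, the islet amyloid gene, had 5813 bp, with a peak across its TSS. The potassium channel regulator gene ABCC9 had 4932 bp and its partner KCNJ8 1537 bp. SOX5, a cartilage and neural factor gene, had 4126 bp. For all 7 of these genes the parental list had no peak within 20 kb. The adjoining bin from 10 to 20 Mb had 3 parental and 22 knockout peaks listed, but 45 to 53 against 106 to 108 called ones. The scarcity of parental peaks reached beyond these genes. From 30 to 40 and from 40 to 50 Mb the parental list had 0 peaks and at most 1 called, against 5 and 13 listed in the knockout. From 60 to 70 Mb, another of the 7 bins, it had 0 listed and at most 12 called. The knockout there had 14 listed and 97 to 113 called. On chromosome 11 the bin from 100 to 110 Mb, with the metalloproteinase cluster, had 8 and 23 listed peaks, and 23 to 52 against 107 to 140 called ones. On chromosome 13 the bin from 30 to 40 Mb had 5 and 21 listed peaks, and 26 to 62 against 155 to 220 called ones. The 1 bin with more in parental cells was 120 to 130 Mb of chromosome 9, with 25 and 14 listed peaks and 75 to 85 against 26 to 37 called ones, where OR1N2, OR1J1 and other receptor genes lie. Copy number of these regions in each genotype was not tested.

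**Figure D5:**
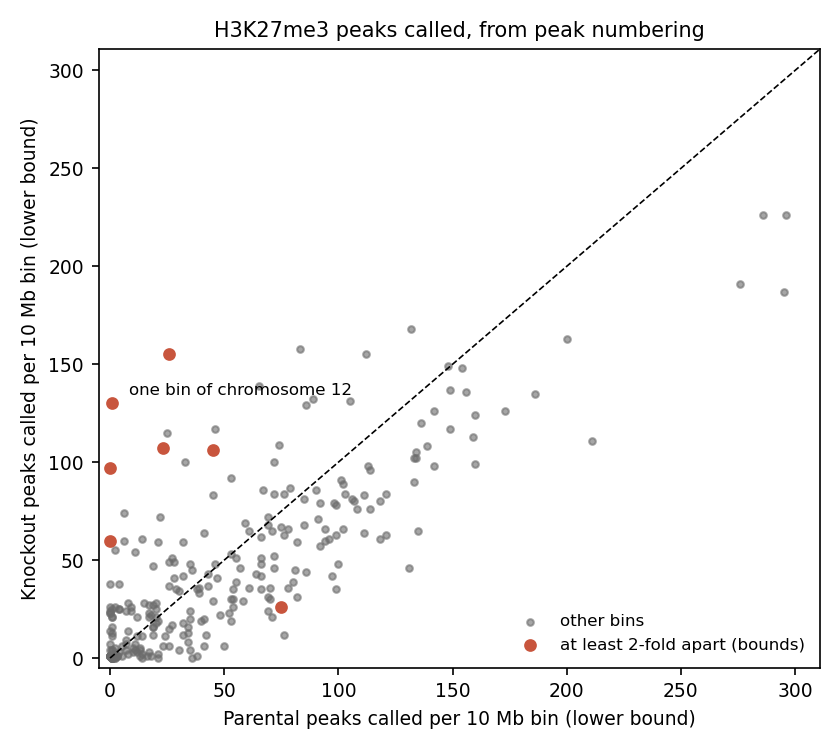
Lower bound of the number of H3K27me3 peaks called in each 10 Mb bin, from the peak numbering, in parental cells (horizontal axis) and in the knockout (vertical axis), with equality dashed. The 7 bins at least 2-fold apart by their bounds are coloured; the labelled bin of chromosome 12 has at least 1 peak in parental cells and at least 130 in the knockout.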

How the data were processed

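H3K27me3 and H3K4me3 chromatin immunoprecipitation libraries of parental and JMJD3 knockout HL-60 cells were used, 1 per genotype and mark. Per the submitters' processing notes, the tools were BWA 0.7.10, SAMtools and MACS2 2.1.1, with build hg19; settings and the use of the inputs are not given in the sources used here. Per the file headers, each line pairs a peak with a transcript, its distance and a score. The score deposited by the authors was a function of distance alone (largest error 5e-13) and was not used. The lists hold no counts, so depth is unknown. Starts were taken as counted from 0 and printed from 1; the sources used here do not state this.

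Distinct intervals were compared with bedtools 2.31.1 (at least 1 bp). Promoters were called marked where a peak spanned a TSS or its centre lay at most 5 kb away. Widths of a gene's distinct peaks were summed. Intervals are Wilson 95% binomial intervals; no test across samples was possible. Gene states, overlaps and domains were tested on simulated data. Of 18086 symbols, 18026 matched RefSeq (GRCh38.p14), which gave lengths, coding status and promoter sequences. Promoter sequences covered 84.8%, 81.2% and 81.9% of coding genes outside chromosome 8 marked in both lists, in parental only and in the knockout only.

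The gene groups and the naming rule (the 8 widest genes per state and window, the 8 largest gains and losses, up to 4 widest members per group and state, and the 5 largest domains per state) were written with earlier results of these data known. False matches in the group patterns were removed after the members were seen, and genes named for their H3K4me3, for spanned starts, in the metalloproteinase family, in the complex, at MECOM or in 10 Mb bins were chosen after their values were seen. Python 3.11.15, pandas 2.3.3, numpy 2.4.6, scipy 1.17.1 and matplotlib 3.10.9 were used.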

Additional observations from a re-analysis of the deposited data

How the results depend on the processing

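The overlap of peaks depended on how overlap was counted. Where coverage of 50% of the peak was asked for, 15.9% of parental and 17.0% of knockout peaks were shared, and with reciprocal 50% overlap 8.44% and 9.34%. A peak of the other list lay within 5 kb of 51.1% and 51.3%. With peaks of at least 1000 bp only the shares were 29.6% and 27.3%, and with equal numbers of the widest peaks 28.8% of parental peaks overlapped. The number of genes marked in both lists was 61 with a 1 kb window, 805 with a 10 kb window, 25 with only peaks that span the TSS, 1399 in the full listing and 196 with peaks of at least 1000 bp. Parental-only genes numbered 190 with a 1 kb window, 100 with spanning peaks, 938 in the full listing and 262 with peaks of at least 1000 bp. Knockout-only genes numbered 136, 89 and 953 under the first 3 of these. Within 20 kb, peaks of at least 1000 bp, an alternative chosen after seeing the data, gave 716 genes in both and 624 in parental only. The share of genes marked in both lists that were wider in the knockout was 50.8% as reported, 44.3% with a 1 kb window and 45.9% in the full listing, also chosen after seeing the data. CpG-rich shares with spanning peaks were 44.4%, 33.9% and 37.7% for both, parental only and knockout only, with the order of the states changed, and the share for both was 45.5% in the full listing. The parental-only share of the full listing is left out as void, since 79.7% of those coding genes had a sequence, under the 80% set as a minimum. In genes of at most 20 kb they were 16.0%, 36.0% and 22.8%. With a 1 kb window for both marks, parental H3K4me3 was found at 26.8% of parental-only and 22.8% of knockout-only genes, and knockout H3K4me3 at 17.9% and 17.6%. Over all genes the shares with this window were 64.8% in the parental and 55.6% in the knockout H3K4me3 list. The numbers of domains stayed within 1.5 times under joining distances of 5 and 20 kb.

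The difference in marked genes, knockout minus parental, was computed for the 11 groups with at least 10 marked members. It kept its sign under all 7 alternatives for the epidermal differentiation complex (-12 as reported, -4 with a 10 kb window, -1 in the full listing) and for matrix genes (7 as reported, 2 with spanning peaks, 17 in the full listing). For keratin genes it was 12 as reported, -3 with a 1 kb window, -3 with spanning peaks and 7 with nearest genes only. For solute carriers it was -12 as reported, -3 with a 1 kb window, -5 with a 10 kb window, -1 with spanning peaks, 1 in the full listing and -3 with peaks of at least 1000 bp. For homeobox genes it was -4 as reported, 0 with a 1 kb window, 1 with spanning peaks, -8 in the full listing, 3 with peaks of at least 1000 bp and -1 with equal numbers of peaks. For signalling genes it was -4 as reported, -1 with a 1 kb window, 0 with spanning peaks, -2 with nearest genes, -1 with peaks of at least 1000 bp and -2 with equal numbers. For olfactory receptors it was 1 as reported, -3 with a 1 kb window, 5 with a 10 kb window, 3 with spanning peaks, 15 in the full listing, 3 with peaks of at least 1000 bp and 4 with equal numbers. For ion channels it was 7 as reported, 1 with a 1 kb window, 3 with a 10 kb window, -2 with spanning peaks, -1 in the full listing and 1 with peaks of at least 1000 bp. For neurotransmitter receptors it was -4 as reported, 2 with a 10 kb window, 0 with spanning peaks, 1 in the full listing and -2 with peaks of at least 1000 bp. For microRNA genes it was -3 as reported, -10 with a 10 kb window, -1 with spanning peaks, -28 in the full listing, -11 with nearest genes, -1 with peaks of at least 1000 bp and 0 with equal numbers. For long intergenic non-coding RNA genes it was 5 as reported, -4 with a 1 kb window, 0 with a 10 kb window, -1 with spanning peaks, -8 in the full listing, 1 with nearest genes and 13 with peaks of at least 1000 bp. The cause of these changes was not tested.

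Of the named genes 101 had a promoter mark, and their width difference, knockout minus parental, could be computed under 584 combinations of gene and alternative; it kept its sign and stayed within 1.5 times in 439, moved further in 106 and turned in 39. In the full listing it turned at DUSP1 (-417 bp), FLG (-2571), HEY1 (15), HEY2 (-1338), HTR4 (-2277), IGF1 (-2275), LCE1D (-10473), MECOM (2214), MMP26 (-1730), MYF5 (2593), NEDD4L (77) and POU3F2 (-1663). With a 10 kb window it turned at DUSP1 (-417), GAREM (-642), HTR4 (-596), IGF1 (-441), KRT28 (691), LCE1D (-7679), MECOM (3139), MIR9-1 (1104), MMP26 (-1730) and POU3F2 (-603). With a 1 kb window it turned at DEFB112 (-1094), FGF14 (1935), FLG (-4370), FN1 (-450), GAREM (-2655), KCTD1 (-677), KRTAP9-9 (-993), LCE1D (-5771) and MECOM (1480). With spanning peaks it turned at FGF14 (1935), FLG (-4370), GAREM (-2655), KCTD1 (-677), LCE1D (-5771) and MECOM (1480), and with peaks of at least 1000 bp at MECOM (303) and OR56A3 (-251).

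No paired analysis was possible because each genotype has 1 library, and leaving a library out leaves no comparison. The lists hold no counts, and the part of depth in peak number and width was not tested.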
